A study of Drosophila melanogaster with 6 samples.

Results

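The transcription factors Twist and Snail, which give ventral cells of the *Drosophila* embryo a mesodermal fate, and 5 effectors of ventral furrow formation were followed in RNA-seq of *Raf926* and WT embryos. The genes are *twi*, *sna*, *fog*, *T48*, *cta*, *RhoGEF2* and *Traf4*. They were named for their roles, with earlier results of these data known. They are 7 of the 17714 genes listed in the count tables, and each passed the filter on low counts. RNA was taken from mixed-stage embryo collections, with 3 biological replicates of each genotype. The WT strain was Oregon R. The other embryos carry *Raf926*-/- as their genotype label, and *Raf926* is a single mutant allele of the Raf kinase gene. By the study's methods, maternally mutant *Raf926* eggs came from mothers of the genotype *w*, *Raf926*, FRT19A/OvoD2, FRT19A. In these mothers, FLP/FRT recombination in the ovary leaves only homozygous mutant germ cells to make eggs. Several such crosses are listed, and which of them gave these samples is not stated. In the listed cross without added transgenes, the fathers carried the FM6 balancer. Maternal Raf activity was therefore targeted, while daughters could receive a paternal X chromosome, and the marked FRT19A chromosome and strain background also differ from Oregon R. The records of all 6 samples give egg laying for 24 h at 25 °C, while the methods give a shorter window at a lower temperature, so the age of the embryos is not settled here.

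Along the ventral midline of the embryo, the nuclear gradient of Dorsal switches on *twi* and *sna* in the presumptive mesoderm before gastrulation. Twist is a basic helix-loop-helix activator of mesodermal genes, and Snail is a zinc finger repressor that keeps neuroectodermal genes off there. Both are needed for the ventral furrow, the infolding that carries the mesoderm inside. The secreted ligand Fog and the transmembrane protein T48, targets of Twist, act through the G-protein alpha subunit Concertina (*cta*) and through RhoGEF2 to recruit Rho1 and contract myosin at the cell apex. Traf4, whose RNA is also made under Twist, acts on the position of adherens junctions. *cta* and *RhoGEF2* are loaded into the egg by the mother, whereas *twi*, *sna*, *fog* and *T48* are transcribed in the blastoderm from the embryo's own genome.

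The total expected count per sample was between 33275401 and 38120428. Values below are normalized counts, which are expected counts scaled by TMM to a common library size, unless TPM is named. A gene was called at an adjusted p under 0.1 with a fold change over 1.5, where the adjusted p came from the quasi-likelihood test of edgeR and the Benjamini-Hochberg method over 11568 genes. Of these, 49.7% were called, 26.9% lower and 22.7% higher in *Raf926*. Among the 7 furrow genes, 4 were called, with *twi*, *sna* and *Traf4* lower and *cta* higher. All 7 had an adjusted p under 0.1, as did 66.7% of all genes, and *fog*, *T48* and *RhoGEF2* were the 3 that passed on p but not on fold, like 17% of all genes. For each of the 7 the WT and *Raf926* samples were apart in normalized counts, which held for 68.5% of all genes tested. In TPM the samples of *T48* overlapped. Counts of this size are near the background, so it is the size and direction of each gene's change that is described. For every one of the 7, an exact two-sided permutation test over the samples gave p = 0.1, the smallest value that 3 samples against 3 allow. *Raf* itself, the targeted gene, had 2538, 2935 and 2184 counts in WT and 1202, 1399 and 1546 in *Raf926*, a log2 fold change of -0.88 (standard error 0.15, edgeR adjusted p = 0.0016).

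**Figure D1:**
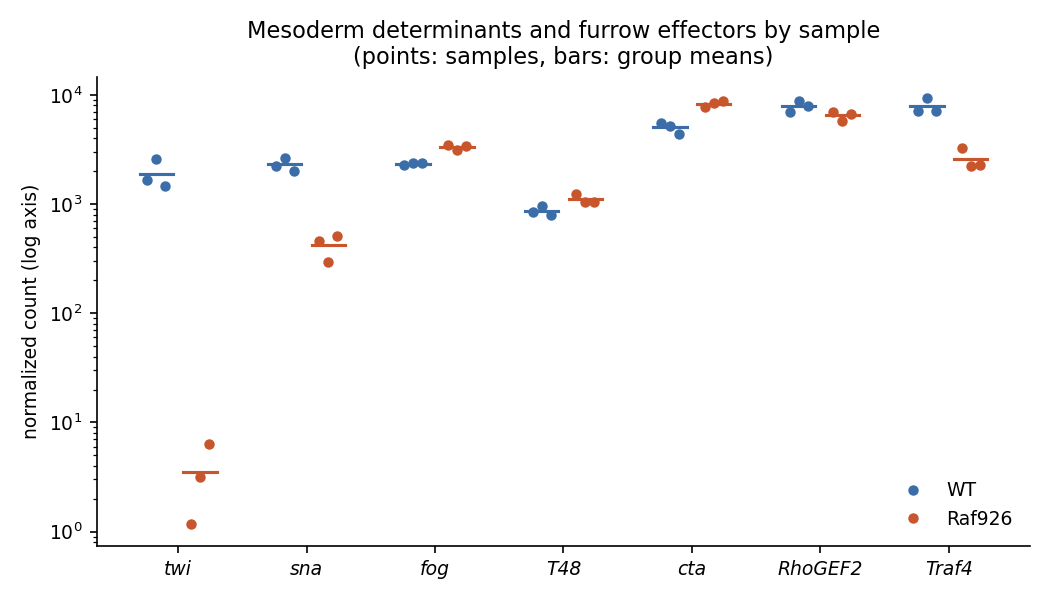
Normalized counts of *twi*, *sna*, *fog*, *T48*, *cta*, *RhoGEF2* and *Traf4* in each sample on a log axis, with WT and *Raf926* side by side, where each point is a sample and each bar a group mean of 3. *twi* spans from 1453 or more in WT down to 6.31 or fewer in *Raf926*, while the groups of *RhoGEF2* come within 3.5 counts of each other.

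*twi* showed the greatest fall of the 7. The WT replicates had 1663, 2589 and 1453 counts of *twi* and the *Raf926* replicates 1.16, 3.15 and 6.31. Before normalization these *Raf926* values are 1, 3 and 6 reads in whole libraries, so the RNA was at or close to the floor of 3 counts in each of them, and replicate 2 of WT was the highest sample. The mean went from 1902 ± 605 (SD, n = 3) to 3.54 ± 2.59 (SD, n = 3), which is 0.186% of WT. The log2 fold change of *twi* was -8.99 (standard error 0.44, edgeR adjusted p = 1.5e-05), and 0.104% of all genes tested had a value as low or lower. Pooled over replicates, 10 reads in *Raf926* stood against 6122 in WT, and the exact 95% interval of this ratio, which covers counting error only, reached from 0.0923% to 0.355%. In a whole-embryo sample, fewer cells that express a gene and less RNA in each such cell cannot be told apart.

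*twi* (FBgn0003900) lies on the plus strand of chromosome 2R in the BDGP6.54 annotation, from 22985374 to 23048325, and has 3 annotated transcripts. Nearly all of its RNA in WT was assigned to the shortest of them, since the others held at most between 0.44% and 1.13% of it. Of the genes whose exons overlap those of *twi*, *CG9897* and *asRNA:CR42742* were at 0 in all 6 samples.

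*sna* fell less far and remained measurable. WT replicates held 2250, 2660 and 2016 counts of it, and the replicates of *Raf926* held 454.9, 296.8 and 509.8. The lowest WT value of *sna* was 3.96 times the highest *Raf926* value, and *Raf926* replicate 2 was the lowest sample. The mean fell from 2309 ± 326 to 420.5 ± 111 (SD, n = 3 each), leaving 18.2% of WT, and its log2 fold change was -2.46 (standard error 0.22, edgeR adjusted p = 0.00012). *sna* (FBgn0003448) is a single-exon gene with 1 transcript of 1668 bases on the minus strand of chromosome 2L, from 15476593 to 15478260, and no other annotated gene shares its exon. *sna* also functions in neuroblasts, the stem cells of the nervous system, where its paralogs *esg* and *wor* act beside it, so *sna* RNA of mixed-stage embryos can come from both tissues.

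Those paralogs were low as well. *esg* fell from a mean of 1563 ± 90.5 to 263 ± 57.4, or 16.8% of WT, and *wor* from 1985 ± 153 to 125.8 ± 55.6, or 6.34%. *scrt*, a relative expressed in neurons and their precursors, fell from 3322 ± 230 to 410.2 ± 18.8, or 12.3%. The log2 fold changes were -2.57, -3.98 and -3.02 in that order. The -2.46 of *sna* was within the standard errors of *esg* (0.18) and nearer 0 than the values of *wor* (0.33) and *scrt* (0.11), a difference that was not tested. Of 7 neuroblast markers, which include *esg* and *wor*, all 7 were called lower, beside 26.9% of all genes tested. Their median log2 fold change was -2.57, against -0.04 over all genes tested. Their summed level ranged from 21472 to 30362 in WT and from 3597 to 4802 in *Raf926*. The part of the neuroblasts in the level of *sna* was not tested.

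*Traf4* was the one effector called lower. The 3 WT replicates held 7079, 9331 and 7112 counts and the *Raf926* replicates 3239, 2211 and 2279. The highest *Raf926* sample, replicate 1, was still below every WT value by 3840 counts. The mean fell from 7841 ± 1291 to 2576 ± 575 (SD, n = 3 each), so 32.9% was left, and the log2 fold change was -1.61 (standard error 0.18, edgeR adjusted p = 0.00032). *Traf4* (FBgn0026319) spans 4361925 to 4380716 on the plus strand of chromosome 2L. The exons of *lncRNA:CR45363* overlap it, and the counting is not described as specific to a strand. This transcript had 12.6, 12.7 and 16.7 counts in WT and 129, 62.9 and 33.6 in *Raf926*, a rise (log2 fold change 2.41, standard error 0.53, edgeR adjusted p = 0.0059) at levels far under those of *Traf4*.

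The 2 upstream signals of apical constriction were not among the genes that fell. *fog*, the ligand, had 2274, 2392 and 2382 counts in WT and 3495, 3117 and 3411 in *Raf926*. The WT replicates of *fog* spanned only 117 counts, and each *Raf926* replicate exceeded them by at least 725 counts. Its mean of 2349 ± 65.1 in WT stood against 3341 ± 198 (SD, n = 3 each), 1.42 times the WT level, and the log2 fold change was 0.51 (standard error 0.09, edgeR adjusted p = 0.0023). The adjusted p passed and the fold did not, so *fog* was not called. With library size alone the log2 fold change was 0.31 (edgeR adjusted p = 0.017), and with the upper quartile 0.35 (edgeR adjusted p = 0.0097). *fog* (FBgn0000719) spans 22824317 to 22855194 on the minus strand of chromosome X, with 6 transcripts, and shares exons with no other gene.

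*T48*, the transmembrane protein that recruits RhoGEF2 apically, had 840.7, 965.1 and 789.2 counts in WT and 1239, 1048 and 1040 in *Raf926*. The groups of *T48* were 74.5 counts apart, and *Raf926* replicate 1 stood above the others. In TPM the groups overlapped, at 12.02, 13.48 and 12.12 in WT and 14.98, 12.8 and 12.25 in *Raf926*. The means were 865 ± 90.4 and 1109 ± 113 (SD, n = 3 each), and the log2 fold change of 0.36 (standard error 0.14, edgeR adjusted p = 0.059) was under the fold threshold. Scaled by library size alone, it was 0.16 with an edgeR adjusted p of 0.29. *T48* (FBgn0004359) lies on the plus strand of chromosome 3R, from 26881734 to 26910997, and shares exon sequence with *Ets97D*, whose counts overlapped between the genotypes (log2 fold change -0.06, edgeR adjusted p = 0.79).

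*cta*, the G-protein subunit through which the Fog signal passes, was the one effector called higher. It had 5582, 5155 and 4387 counts in WT and 7685, 8469 and 8799 in *Raf926*. Even the lowest *Raf926* replicate of *cta* exceeded the highest WT replicate by 2103 counts. The mean rose from 5041 ± 605 to 8318 ± 572 (SD, n = 3 each), a 1.65-fold rise, and the log2 fold change was 0.72 (standard error 0.12, edgeR adjusted p = 0.0013). With library size alone or the upper quartile as the scale, it was 0.53 or 0.57, under the fold threshold, and *cta* was not called. *cta* (FBgn0000384) lies on the plus strand of chromosome 2L, from 22981816 to 22992951.

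*RhoGEF2*, the exchange factor that activates Rho1 at the cell apex, was not called. It had 7030, 8774 and 7916 counts in WT and 7027, 5736 and 6723 in *Raf926*. Replicate 1 of the 2 genotypes held nearly the same count of *RhoGEF2*. The means were 7907 ± 872 and 6495 ± 675 (SD, n = 3 each), 82.1% of WT. Its log2 fold change of -0.28 (standard error 0.12, edgeR adjusted p = 0.073) did not pass the fold threshold. Without *Raf926* replicate 2, the edgeR adjusted p was 0.29. With library size alone, *RhoGEF2* was at -0.48 (edgeR adjusted p = 0.0087), still under the fold threshold. *RhoGEF2* (FBgn0023172) lies on the plus strand of chromosome 2R, from 17027190 to 17044653. Of the antisense genes on its exons, *asRNA:CR45144* reached at most 8.76 counts and *asRNA:CR45145* at most 43.

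**Figure D2:**
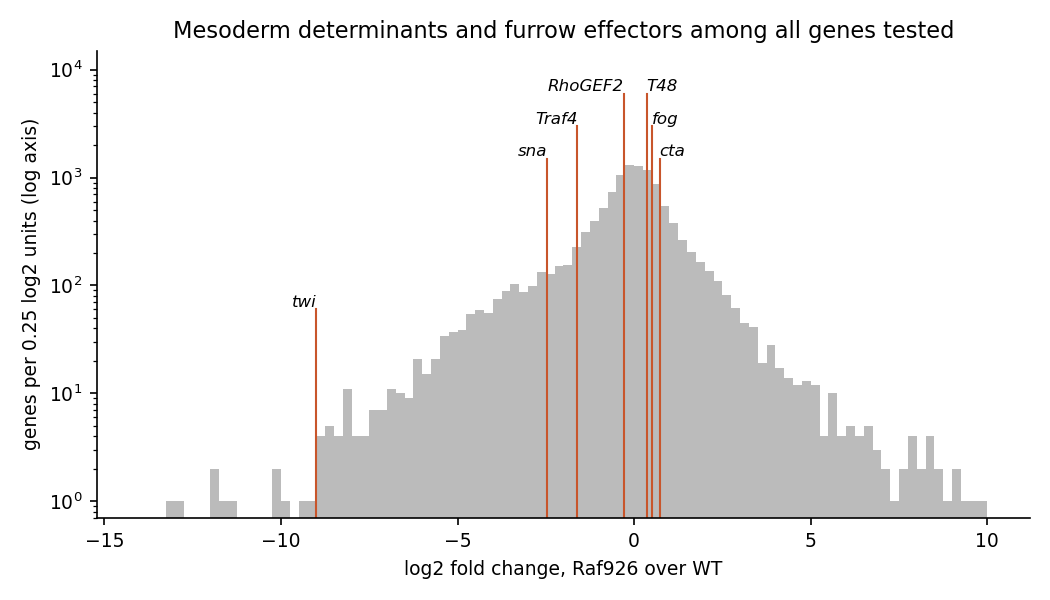
Histogram of the log2 fold change (*Raf926* over WT) of the 11568 genes tested, in steps of 0.25 with a log axis for the number of genes, and vertical lines at *twi*, *sna*, *Traf4*, *RhoGEF2*, *T48*, *fog* and *cta*. *twi* at -8.99 lies in the far left tail, *sna* and *Traf4* lie on the left shoulder, and the other 4 lie between -0.28 and 0.72. Counted from the lowest value, *RhoGEF2* ranks 4548 and *cta* 9271 of the 11568 genes, with *T48* and *fog* between them.

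The 2 annotated transcripts of *cta* moved in opposite directions. They share the same coding exons with 1371 coding bases, and the longer one, of 2764 bases, has 608 further bases of 3′ UTR at 22992344 to 22992951 that the shorter one, of 2156 bases, lacks. The mean transcript length that the authors' quantification gave for the gene in each sample fixes the share of each. The longer transcript made up 30.5%, 33.5% and 34.7% of *cta* RNA in WT but 17.1%, 14.8% and 16.1% in *Raf926*, means of 32.9% ± 2.17 and 16% ± 1.2 (SD, n = 3 each). The groups were apart, and the exact permutation p of 0.1 is the smallest possible, in a family of 10 comparisons of transcript lengths and shares. Leaving out each sample in turn, the difference stayed between -18.11 and -16.01 percentage points.

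In TPM, which is corrected for transcript length and library size, the shorter *cta* transcript went from 51.2 ± 6.33 to 92.1 ± 7.09, 1.8 times the WT level. The longer transcript went from 25 ± 0.62 to 17.5 ± 0.75, or 0.701 of WT. On the TMM scale, as counts per kilobase, the shorter was at 2.16 and the longer at 0.845 of WT, and the genotypes were apart for each of them. The direction was thus the same on both scales, and the higher total of *cta* was carried by the transcript with the shorter 3′ UTR. These shares rest on RSEM's assignment of reads to transcripts, and no reads across the 3′ end were examined.

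**Figure D3:**
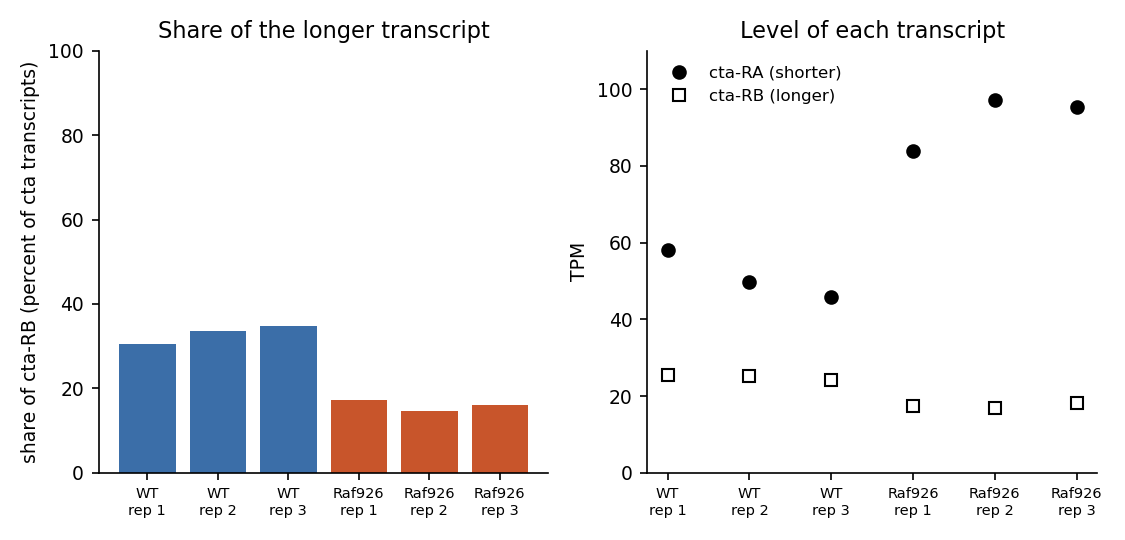
Left, the percent of *cta* RNA in the longer transcript in each WT and *Raf926* sample, and right, TPM of the shorter and the longer transcript, with a bar (left) or a point (right) for each sample. The longer transcript holds 30.5% to 34.7% in WT and 14.8% to 17.1% in *Raf926*, and the rise in TPM is seen for the shorter transcript.

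Among the others, the mean transcript length of *RhoGEF2* was 8308 ± 43.6 bases in WT, against 8401 ± 21.9 bases in *Raf926* (SD, n = 3 each), without overlap (exact permutation p = 0.1). Its 5 transcripts cannot be separated from 1 mean length. For *fog* the lengths overlapped, at 3854 ± 21.9 and 3862 ± 17.6 bases. The 2 transcripts of *T48*, of 2443 and 2449 bases, are too alike in length to be told apart.

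The order of the genes by level also differed between the genotypes. In WT, *Traf4* had the highest TPM, 118 ± 15.6, followed by *cta* at 76.2 ± 6.9, *sna* at 51.9 ± 5.16 and *twi* at 36.9 ± 10.2. *RhoGEF2* at 31.2 ± 3.19, *fog* at 20.8 ± 1.44 and *T48* at 12.5 ± 0.816 TPM followed (SD, n = 3 each). The replicates of *sna* and *twi*, and those of *twi* and *RhoGEF2*, overlapped, and the other neighbours in this order did not.

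In *Raf926*, *cta* came first at 110 ± 7.12 TPM, then *Traf4* at 32.2 ± 7.3, *fog* at 24.4 ± 1.27, *RhoGEF2* at 21 ± 2.01 and *T48* at 13.3 ± 1.44. *sna* at 7.82 ± 1.94 and *twi*, at 0.02, 0.05 and 0.1 TPM in the 3 replicates, came last. No neighbours in this order overlapped. In TPM, then, the 2 mesoderm determinants passed from the middle of the order to its end, below every effector.

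The other parts of the Fog pathway were mostly not called, and the counts below stand beside 26.9% lower and 22.7% higher over all genes tested. Of 6 Fog receptors and G-protein partners, 1 was called lower and none higher, with a median log2 fold change of -0.13. The one called was *smog*, a G-protein-coupled receptor for Fog, with 341.5, 292.2 and 600.1 counts in WT and 122.2, 144.7 and 126.1 in *Raf926*. WT replicate 3 was high, and *smog* fell to 31.9% of WT (log2 fold change -1.65, standard error 0.30, edgeR adjusted p = 0.0026). The other receptor, Mist (*mthl1*), had overlapping groups with means of 1709 ± 128 and 1478 ± 286 counts (log2 fold change -0.21, edgeR adjusted p = 0.27). *Ggamma1*, *ric8a*, *Gprk2* and *Gbeta13F* had log2 fold changes between -0.33 and 0.16 and were not called.

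Of 11 genes of Rho1 signalling and actomyosin, 2 were called higher and none lower, with a median log2 fold change of 0.41, and this share is near the 22.7% of all genes. *Abl*, a tyrosine kinase that restrains Enabled during constriction, rose from 7790 ± 469 to 15527 ± 2172 counts (log2 fold change 1.00, edgeR adjusted p = 0.00041). *flw*, a catalytic subunit of myosin phosphatase, rose 1.57-fold, or by 0.65 on the log2 scale, but was at 0.45 and not called with library size alone, and at 0.53 and not called without WT replicate 2. *Rho1* itself had a log2 fold change of 0.29, the myosin light chain *sqh* 0.52, the heavy chain *zip* -0.08 and *Rok*, a kinase that activates myosin, 0.07, and none of these 4 was called. On the scale of library size alone, *Rok* was at -0.13.

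Of 6 adherens junction genes, 2 were called higher and none lower, with a median log2 fold change of 0.35, again not far from the 22.7% of all genes. *cno* (Canoe), which ties junctions to actomyosin, rose from 15321 ± 757 to 25194 ± 1693 counts, and *alpha-Cat* rose from 16104 ± 1861 to 24651 ± 2188, 1.53-fold. With library size alone, *cno* was at 0.52 and *alpha-Cat* at 0.42 on the log2 scale, and neither was called. *alpha-Cat* was also not called without WT replicate 3, at 0.53, or without *Raf926* replicate 3, at 0.57. E-cadherin (*shg*) had a log2 fold change of -0.30 and *arm*, the fly beta-catenin, 0.21, and neither was called.

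**Figure D4:**
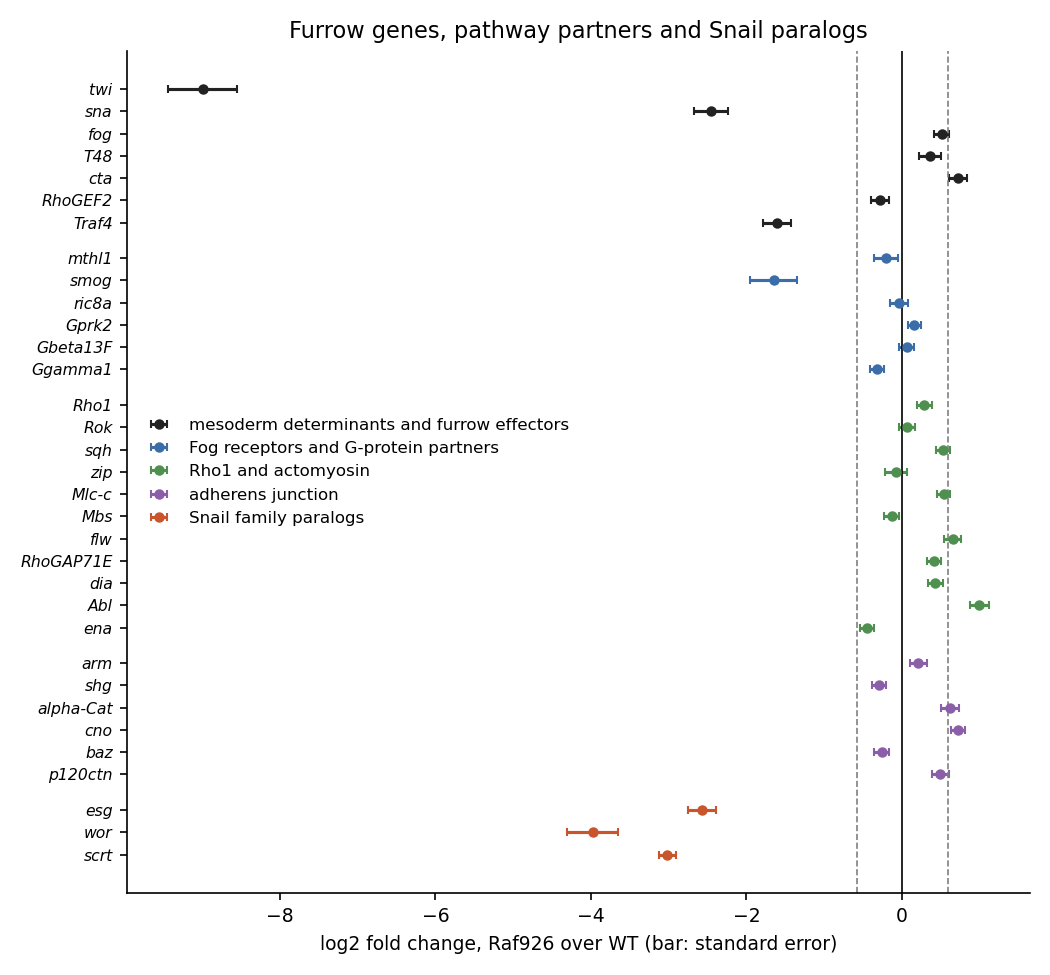
Log2 fold change (*Raf926* over WT, with its standard error as bars) of *twi*, *sna* and the furrow effectors, of their pathway partners and of the Snail paralogs, with dashed lines at the fold threshold of 1.5. *twi*, *sna*, *Traf4*, *smog* and the 3 Snail paralogs lie below the lower line, and *cta*, *Abl*, *flw*, *cno* and *alpha-Cat* lie above the upper one.

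Of 4 activators that act on *twi* and *sna*, 2 were called higher and none lower. *dl*, which encodes Dorsal, had 3093, 2620 and 2920 counts in WT and 3102, 2941 and 3024 in *Raf926*. The groups overlapped, and the log2 fold change of *dl* was 0.07 (edgeR adjusted p = 0.55), or -0.13 on the scale of library size alone. RNA says nothing of where the Dorsal protein lies. *zld*, the pioneer factor Zelda of early zygotic transcription, rose 1.6-fold and *Stat92E* 1.7-fold, although with library size alone they were at 0.49 and 0.57 on the log2 scale and not called. *da*, the partner of Twist-type proteins Daughterless, had 75.8% of the WT count and was not called, but with library size alone it was called lower at -0.59.

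At the embryo's ends, *hkb* and *wntD* limit the mesoderm, and both respond to the Torso and Raf signal. *hkb*, a repressor of *sna* at the poles, fell from 932 ± 181 to 14.5 ± 4.45 counts, 1.56% of WT (log2 fold change -5.99, edgeR adjusted p = 1.7e-05). *wntD*, a feedback inhibitor of Dorsal that Twist activates, had 976, 1669 and 623 counts in WT and 3.49, 0 and 3.15 in *Raf926*. Like *twi*, it was at or near the floor in every *Raf926* replicate (log2 fold change -8.89, standard error 0.66, edgeR adjusted p = 6e-05). *cic*, a repressor of *hkb* that Torso signalling relieves, and the co-repressor gene *gro* had log2 fold changes of 0.45 and 0.39 and were not called.

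Downstream of Twist, all 9 mesoderm genes on the list were called lower, with a median log2 fold change of -3.74. *Him*, an inhibitor of muscle differentiation, fell from 1079 ± 64.4 to 7.5 ± 5.34 counts, and *tin*, the homeobox gene of dorsal mesoderm and heart, from 629 ± 179 to 25.1 ± 21. The FGF receptor gene *htl* fell to 7.48% of WT and its adaptor *stumps* to 4.99%. *Mef2*, the regulator of muscle differentiation, and *zfh1* kept 26.7% and 24.8% of WT. *how*, which is also expressed outside the mesoderm, changed least, at 66.4% of WT, just past the threshold. It was not called without WT replicate 3 (-0.54), *Raf926* replicate 2 (-0.52) or *Raf926* replicate 3 (-0.56). *CadN* kept 26.6% of WT. The part of tissues other than mesoderm in the fall of any of these 9 genes was not tested.

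Genes that Snail represses in the mesoderm did not move together. Of 10, 4 were called lower, 1 higher and 5 were not called. The midline regulator *sim* fell to 2.93% of WT, *vnd* to 8.83% and *l(1)sc* to 11.3%. *E(spl)m4-BFM* had 2853, 4337 and 3274 counts in WT and 11772, 9517 and 10630 in *Raf926*, a 3.05-fold rise (log2 fold change 1.61, standard error 0.17, edgeR adjusted p = 0.00021). Its groups were far apart, whereas *Brd*, *Tom* and *Ocho* of the same Bearded-type family had log2 fold changes of -0.58, -0.37 and 0.11 and were not called. *Brd*, just short of the threshold, was called lower with library size alone at -0.78, and without WT replicate 1 or 3 or *Raf926* replicate 1 or 3, at -0.64 to -0.60. *Ocho* was at -0.08 with library size alone.

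Mitosis is held back in the furrow while it forms. Of the 3 genes on that list, *trbl*, which promotes the decay of the String phosphatase, was called lower at 66.6% of WT, with a log2 fold change of -0.59 at the edge of the threshold. It was not called with DESeq2's size factors or test (-0.57), without WT replicate 2 (-0.46) or without *Raf926* replicate 2 (-0.56) or 3 (-0.54). *stg* had a log2 fold change of -0.19 and *Z600* (*frühstart*) of -0.93 with overlapping groups, and neither was called. Without *Raf926* replicate 1, *Z600* was called lower at -2.07 (edgeR adjusted p = 0.0054). *fog* is also used in the posterior midgut and salivary gland invaginations. The 4 regulators listed for them, *hkb*, *byn*, *tll* and *fkh*, were all called lower, while *fog* was not.

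Marker RNAs of several tissues and stages differed between the genotypes. Markers of differentiated muscle, a mesodermal tissue, fell in 6 of 6 genes, with summed levels of 80816 to 152000 counts in WT and 420 to 13048 in *Raf926*, where replicate 2 was highest. Early zygotic genes of the blastoderm, the stage at which *twi* and *sna* are first expressed, were called lower in 3 of 6 genes, with summed levels of 8607 to 14184 in WT and 5381 to 11762 in *Raf926*, which overlap. *Raf926* replicate 1 had the highest early zygotic sum of its genotype. Without that replicate 5 of the 6 were called, with *halo* at -3.90 and *Z600* at -2.07, and without WT replicate 1 or *Raf926* replicate 2 or 3 it was 2, since *bnk* was no longer called. Maternal RNAs were called higher in 5 of 6 genes, with sums of 5536 to 9019 in WT and 15468 to 19836 in *Raf926*. Their part in the higher *cta*, *zld* and *fog* was not tested, nor was that of embryo stage in any of the 7 genes.

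Profiles over the 6 samples were compared with 9075 genes that had at least 100 normalized counts on average. The measure was the root-mean-square difference in log2(normalized count + 1) after subtraction of the WT mean. Nearest to *twi* were *Ccp84Ae* at 0.69, *CG13051* at 0.71, *TwdlC* at 0.74, *Osi18* at 0.76 and *CG13069* at 0.82. These 5 had log2 fold changes between -11.8 and -8.48, beside -8.99 for *twi*, and at most 3 counts before normalization in any *Raf926* sample. They were picked for their likeness over these same samples, so large falls follow from the choice. Each reached the mean of 100 counts only through WT and, like *twi*, was near or at the floor in *Raf926*. In WT each was highest in replicate 3, where *twi* was lowest. *Ccp84Ae* and *TwdlC* encode cuticle proteins, and with a pseudocount of 5 only 1 of these 5 genes was still among the nearest. Nearest to *sna* were *ltl* at 0.20, *run* and *slp2* at 0.21 each, *upd1* at 0.21 and *nvy* at 0.23. *run* and *slp2* are pair-rule genes of segmentation that are used again in the nervous system, and *upd1* encodes a ligand of the JAK/STAT pathway. Their log2 fold changes were -2.60, -2.23 and -2.52, beside -2.46 for *sna*, a closeness that also follows from how they were picked.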

How the data were processed

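RNA was sequenced from 6 embryo samples, 3 *Raf926* and 3 WT. Per the labels and the methods, the authors aligned reads with STAR 2.7.1a to dm6 (BDGP6.22 annotation) and quantified them with RSEM 1.3.1. The authors deposited RSEM's expected counts per gene, without normalization, of which 11.5% are not whole, because RSEM shares out ambiguous reads. The authors' tables also hold TPM, used here to set genes side by side, mean transcript lengths, used for transcript shares, and FPKM, not used here.

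Expected counts were rounded. Names, coordinates and transcripts came from BDGP6.54 (Ensembl release 115), which matched 17587 of 17714 genes by gene identifier and 76 by transcript, leaving 51 unmatched. For genes with 1 transcript, the lengths in the tables equalled those of this annotation within 0.5 bases in 10167 of 10205. The 390 rRNA, snoRNA and snRNA genes and genes with a mean under 10 counts were removed, which left 11568. TMM factors ran from 1.03 to 1.11 in WT and from 0.931 to 0.937 in *Raf926*. edgeR 4.0.16 (R 4.3.3) fitted the quasi-likelihood model on genotype over all 6 samples, with adjustment by Benjamini-Hochberg. The Wald test of DESeq2, the study's tool, was an alternative (DESeq2 1.42.0). A standard error is the log2 fold change divided by the root of F. The floor of 3 counts equals 0.0787 to 0.0902 CPM. Intervals were computed on reads pooled over the replicates of each genotype, so they cover counting error only and not the spread between replicates. Reads carry no molecular identifiers, so duplicate reads of the same molecule could not be told apart. Replicates were not copies of each other, with a chi-square per degree of freedom of 27.5 to 79.9 within genotypes and 353.2 or more between them.

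The genes and gene lists were chosen with earlier results of these data known. Genes named are the 7 furrow genes, genes of the pathway and marker lists, *Raf*, and the 5 nearest profiles to *twi* and to *sna*. A result for 1 gene of these lists is not reported here. Genes that share exons with the 7 were named after their values were seen. The markers of hemocytes, amnioserosa, neurons, late epidermis and of adult fly and ovary were summed as well. Alternatives were DESeq2 size factors, library size alone, upper-quartile scaling, DESeq2, no low-count filter, filterByExpr, a replicate block, each sample left out, an adjusted p of 0.05, no fold threshold and pseudocounts. The test of *cta* transcripts on the TMM scale and with samples left out was added after seeing the data. No sequences are printed. Figures were drawn with matplotlib 3.10.9.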

Additional observations from a re-analysis of the deposited data

How the results depend on the processing

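*twi*, *sna* and *Traf4* were called lower under each alternative run. With each sample left out, the log2 fold changes stayed between -9.67 and -8.61 for *twi*, -2.62 and -2.22 for *sna*, -1.80 and -1.47 for *Traf4*, 0.46 and 0.59 for *fog*, 0.27 and 0.44 for *T48*, 0.64 and 0.78 for *cta* and -0.38 and -0.17 for *RhoGEF2*. Between 4 and 5 of the 7 genes were called, 1 to 2 of them higher, because *fog* passed without *Raf926* replicate 2 at 0.592. With library size alone or the upper quartile, 0 were called higher, since *cta* was at 0.527 or 0.566. These scales put the median of all genes at -0.240 and -0.202 in place of -0.043. Without a fold threshold all 7 were called, as were 7712 of all genes. The 3 called higher were then *cta*, *fog* at 0.508 and *T48* at 0.358, and *RhoGEF2* at -0.284 was called lower.

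Signs turned for genes near 0. With library size alone or the upper quartile, *Gprk2* was at -0.042 or -0.003, *Gbeta13F* at -0.138 or -0.100, *Rok* at -0.127 or -0.089, *dl* at -0.129 or -0.090, *Ocho* at -0.081 or -0.042 and *gcl* at -0.069 or -0.031. With a sample left out, *slam* ranged from -0.349 to 0.122, *ric8a* from -0.115 to 0.008, *zip* from -0.194 to 0.004 and *dl* from -0.039 to 0.126. With a pseudocount of 5, 1 of the 5 genes nearest to *twi* was shared.

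Over all genes, deviations from the genotype means did not go together between samples of the same replicate number (correlations -0.039, -0.201 and -0.175). Each early zygotic marker, and *zen*, was however highest in replicate 1 of both genotypes. Whether the numbers pair the samples is thus not settled. With the number as a block, 4 of the 7 and 5493 of all genes were called, against 5747. *Z600* (-1.273, edgeR adjusted p = 0.022) and *halo* (-2.625, edgeR adjusted p = 0.015) were then called lower. *zen* (0.979, edgeR adjusted p = 0.045) was called higher, while *trbl* (-0.568) and *Hml* (0.741) were no longer called. DESeq2 called 5516. The *twi* level in *Raf926* rests on 10 reads, so its fold is the least precise of the 7.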

Other observations

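Among tissues not described above, markers of late epidermis were higher in *Raf926*. All 4 listed markers, the chitin genes *verm*, *serp*, *kkv* and *knk*, were called higher, with a median log2 fold change of 2.23. Their summed levels were 13549 to 22176 counts in WT and 86358 to 116730 in *Raf926*. Neuron markers fell in 4 of 4 genes, from sums of 16827 to 20932 to sums of 3334 to 4051. Of 4 hemocyte markers, cells that descend from head mesoderm, *srp* and *Pxn* were called lower, and *Hml* and *crq* higher. *Hml* was not called without WT replicate 1 (0.64) or 2 (0.45) or without *Raf926* replicate 2 (0.57), nor *crq* without WT replicate 3 (0.53), and neither was called with library size alone (0.50 and 0.45). Of 4 amnioserosa markers 3 were called lower. The other, *zen*, was at 1.18 with overlapping groups and was not called (edgeR adjusted p = 0.1). *Raf926* replicate 1 was its highest sample. With each sample left out, *zen* ranged from 0.358 to 1.553, with an edgeR adjusted p of up to 0.5. It was called higher without *Raf926* replicate 2 (1.41) or 3 (1.55), by DESeq2 (1.19) and with the replicate block (0.979). The 5 genes of adult flies and ovaries summed to at most 20.8 counts in any sample.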
